A study of Mus musculus with 4 samples.

Results

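Chromatin accessibility was examined at 10 genes of fat cell formation and lipid storage in fibroblastic reticular cells (FRCs), the fibroblasts that build the scaffold of lymph nodes. The genes were the adipogenic regulators Pparg, Cebpa, Cebpb, Cebpd, Zfp423 and Klf15 and the lipid storage and adipocyte genes Lpl, Fabp4, Plin1 and Adipoq. An accessible region belonged to a gene when the midpoint of its most covered window lay inside the gene, or when that gene was the nearest protein-coding gene within 100 kb. By this rule 108 of 110121 regions were assigned to the 10 genes, and 47 of the 108 lay inside a gene. This assignment is by position, and the gene that a region acts on was not tested. ATAC-seq cuts and tags accessible DNA with a transposase, and it had been run on cells sorted from the brachial, axillary and inguinal nodes of female C57BL/6 mice aged 12 weeks. The sort kept cells high in BP3 and positive for podoplanin, and left out cells with CD31 (endothelium) or CD45 (leukocytes). In the Notch2_cKO group, the mice carried Ccl19-Cre and Notch2 fl/fl, so that recombination of Notch2 depends on Ccl19-Cre activity, past or present, in the cell. The control group consisted of littermates with the same floxed Notch2 alleles and without Cre. Each group had 2 libraries, and each library was a pool of 6 mice.

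Adipogenesis is known as a cascade of transcription factors. C/EBPβ and C/EBPδ act early and switch on PPARγ and C/EBPα, which then maintain each other and turn on the genes of lipid uptake and storage. Zfp423 and Klf15 promote this program, and lymph nodes lie in fat pads, so that nodal stroma and adipocyte precursors are neighbours with a shared mesenchymal origin.

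The libraries held 23633406 and 25744540 counts (control 1 and 2) and 30265230 and 12342835 counts (Notch2_cKO 1 and 2), summed over the most covered window of every region. Levels are CPM, loess-normalized counts of the 300-bp window that stands for a region, scaled to a common library depth. At the start of Notch2, the targeted gene, the level was 56.4 ± 1.55 CPM in controls and 50.7 ± 6.39 CPM in Notch2_cKO (SD, n = 2 each), a log2 difference of -0.14 that did not pass (edgeR, adjusted p = 0.341). This start does not have to lie in the floxed stretch and is no check of the deletion. Control 2, labelled female, held 95 to 221 counts at the Y-linked genes Kdm5d, Uty, Eif2s3y and Ddx3y, and the other 3 libraries held 0 or 1, so the calls and call counts of the 10 genes, and of the lists at the end, are also given without control 2. Sums and counts of non-overlapping regions use all 4 libraries. Gene-end regions of FRC markers were accessible in every library, with sums of 149 to 162 CPM over 7 of 10 genes. Pdgfra, Ccl19 and Ccl21a had no gene-end region. Of 10 leukocyte markers, 6 had no gene-end region, including Ptprc and Cd3e, and the other 4 summed to 21.6 to 23.1 CPM. Of 8 adipocyte markers, Adipoq, Cidec and Adrb3 had none, and the sums over the other 5 ranged from 30.8 to 37.3 CPM. Gene-end sums of blood endothelial markers were 32.9 and 30.8 CPM in controls and 40.8 and 42.5 CPM in Notch2_cKO, over 3 of 8 genes (Kdr, Tek and Cldn5), and Pecam1 and Cdh5 had none. Those of mural cell markers were 79.4 and 78.3 CPM in controls and 66.9 and 65.0 CPM in Notch2_cKO, over 4 of 5 genes. The sums covered 9 regions for FRC, 6 for adipocyte, 5 for mural, 4 for blood endothelial and 4 for leukocyte markers. They therefore give no order between cell types. The part of these cell types in the results below was not tested, and fewer cells of a type cannot be told apart from less open chromatin per cell.

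Promoter sequences show how differently the starts of these genes are built. RefSeq sequence for the mm10 assembly (GRCm38.p6) was at hand for 10 annotated starts of 7 of the 10 genes, and the 250 bases before each start were read. Of these 10 starts, 5 lay under an accessible region, against 53.6% of the 21263 protein-coding promoters in the same table. The sequences below are written 5′ to 3′ on the strand of the gene, and capitals mark 3 motifs searched on both strands, which did not overlap one another here. The first is TGGGAA, the core bound by RBPJ, the DNA-binding partner of Notch receptors, which reads TTCCCA when it lies on the other strand. The second is TTGCNNAA, a C/EBP-type element, and the third is AGGTCA, the core element of nuclear receptors such as PPARγ with its partner RXR. Over all protein-coding promoters of the same length, 20.9% held TGGGAA, 9.09% held TTGCNNAA and 12.8% held AGGTCA. A match is a description of letters and not a binding site.
Cebpa, chr7:35119043-35119292, plus strand: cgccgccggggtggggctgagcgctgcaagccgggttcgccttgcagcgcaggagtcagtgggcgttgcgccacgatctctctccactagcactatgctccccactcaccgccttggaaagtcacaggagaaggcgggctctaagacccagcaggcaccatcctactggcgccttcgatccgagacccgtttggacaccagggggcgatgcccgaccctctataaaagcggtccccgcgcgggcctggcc
Pparg, the first start, chr6:115360894-115361143, plus strand: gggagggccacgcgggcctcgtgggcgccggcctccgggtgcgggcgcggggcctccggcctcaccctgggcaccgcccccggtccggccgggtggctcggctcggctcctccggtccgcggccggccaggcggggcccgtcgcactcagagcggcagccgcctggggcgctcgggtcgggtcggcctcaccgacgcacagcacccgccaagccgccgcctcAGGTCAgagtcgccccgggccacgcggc
Pparg, the third start, chr6:115421816-115422065, plus strand: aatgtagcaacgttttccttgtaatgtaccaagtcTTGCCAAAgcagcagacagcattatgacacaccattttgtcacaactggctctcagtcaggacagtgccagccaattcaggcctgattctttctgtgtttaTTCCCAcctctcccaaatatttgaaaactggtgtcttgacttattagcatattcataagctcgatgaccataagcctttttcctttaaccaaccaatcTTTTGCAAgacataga
Plin1, chr7:79732777-79733026, minus strand: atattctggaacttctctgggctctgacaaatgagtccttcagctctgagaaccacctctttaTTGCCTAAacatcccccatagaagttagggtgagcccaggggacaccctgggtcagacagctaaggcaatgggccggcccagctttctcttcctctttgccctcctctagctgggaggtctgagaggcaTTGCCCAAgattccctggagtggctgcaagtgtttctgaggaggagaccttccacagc
Adipoq, chr16:23146286-23146535, plus strand: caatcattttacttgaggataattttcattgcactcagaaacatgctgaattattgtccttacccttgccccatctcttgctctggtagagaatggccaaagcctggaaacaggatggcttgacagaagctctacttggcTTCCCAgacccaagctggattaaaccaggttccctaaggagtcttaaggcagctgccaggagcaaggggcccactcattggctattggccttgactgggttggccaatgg
Zfp423 internal start, chr8:87804440-87804689, minus strand: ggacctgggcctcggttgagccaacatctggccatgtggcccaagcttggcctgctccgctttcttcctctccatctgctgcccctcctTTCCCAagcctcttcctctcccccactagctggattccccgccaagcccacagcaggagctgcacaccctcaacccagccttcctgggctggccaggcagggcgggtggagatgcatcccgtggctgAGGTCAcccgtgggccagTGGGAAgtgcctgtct

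The Cebpa and first Pparg promoters are shown because both are rich in CpG and yet differ in accessibility. Their GC content was 66.4% and 82.4%, and levels were not adjusted for it. Cebpa had 22 CpG in its 250 bases and lay under a region of 72.0 CPM, whereas the first Pparg start had 38 CpG and a region of 3.67 CPM, with 1 match to AGGTCA (28 bases before the start). The median over all promoters was 10 CpG, and the median region over a promoter had 30.3 CPM. The third Pparg start, with 2 CpG, held 1 match to TGGGAA (114 bases before the start) and 2 to TTGCNNAA (215 and 16 bases before the start), and no region covered it. Plin1 had 1 CpG, 2 matches to TTGCNNAA (187 and 58 bases before the start) and a region of 2.60 CPM. Adipoq had 0 CpG, 1 match to TGGGAA (110 bases before the start) and no region over its promoter. The internal Zfp423 start is shown because it lies between regions that changed. It held 2 matches to TGGGAA (161 and 16 bases before the start) and 1 to AGGTCA (34 bases before the start), and no region covered it. The first Zfp423 start (18 CpG) held 1 match to TTGCNNAA, 131 bases before the start, and no region covered it either. The promoters of Cebpb (41 CpG, 35.7 CPM) and Klf15 (37 CpG, 52.4 CPM) were covered and held none of the 3 motifs. Lpl, Fabp4 and Cebpd had no entry in the promoter table.

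Of the 108 regions, 14 were higher in Notch2_cKO, 5 were lower and 89 did not pass the test (quasi-likelihood test of edgeR, with the adjusted p under 0.05 over all 110121 regions). The shares were 13% higher and 4.63% lower. Over all regions, 12.5% were called higher and 11.2% lower, so the share of member regions called higher was near that background and the share called lower was under it, which was not tested. The median log2 difference of Notch2_cKO over control was 0.07 over the 108 regions and 0.01 over all regions. The calls were unevenly spread over the genes. Zfp423 held 7 of the 14 higher regions and Lpl 4, while Cebpa, Cebpb and Klf15 held 1 each. The 5 lower regions belonged to Cebpb (2), Cebpa (1), Pparg (1) and Adipoq (1). In 63 of the 108 regions the libraries of the groups did not overlap, 37 with Notch2_cKO above and 26 with Notch2_cKO below, or 58.3% of members against 59.9% of all regions (30.4% above and 29.5% below). Only 10 member regions lay within 1000 bp of a gene end, of which 2 were higher and 0 lower, and among all 13122 such regions 5.74% were higher and 4.44% lower.

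These counts moved with the libraries and the scaling. Without control 2, 11 regions were higher and 1 was lower, against 8.12% and 7.47% of all regions. Without control 1 the counts were 8 and 2, against 9.25% and 7.26% of all regions. Without Notch2_cKO 1 they were 11 and 8, against 11% and 8.68%, and without Notch2_cKO 2 they were 15 and 5, against 14.1% and 13.4%. Centring each library on its median count gave 13 higher and 9 lower, against 10.9% and 16% of all regions, and the share of higher among the calls over all regions was then 40.5%, against 52.8%. None of the 19 called regions changed direction in any of these fits.

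**Figure D1:**
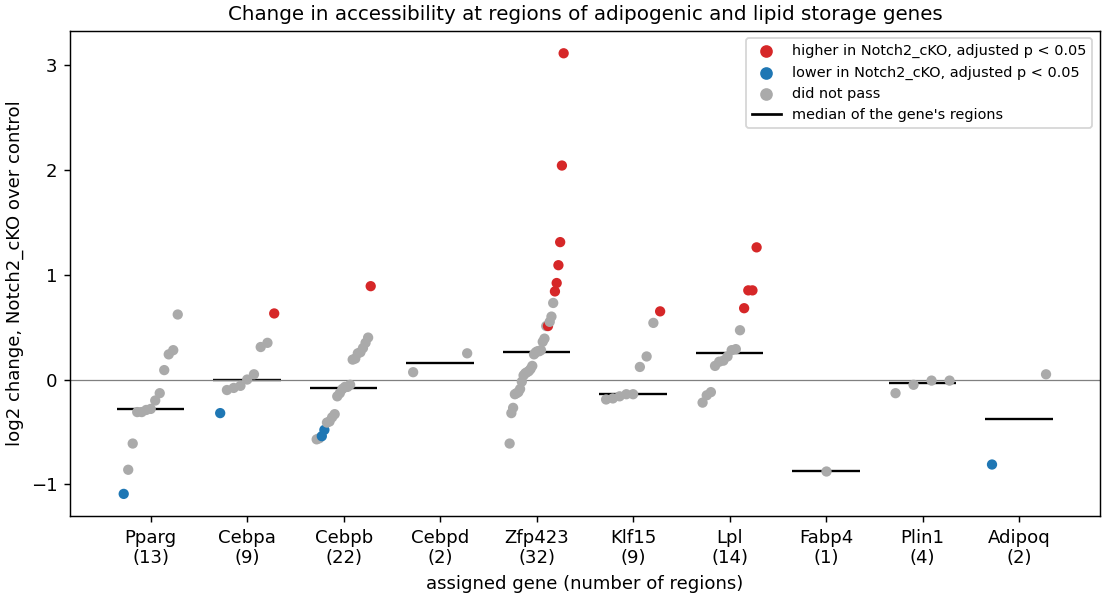
Log2 difference in accessibility of Notch2_cKO over control (y axis) for each of the 108 regions, by assigned gene (x axis, number of regions in brackets). Points are regions, red and blue mark those that passed the edgeR test at an adjusted p under 0.05, and bars are gene medians. Zfp423 reaches a log2 of 3.11, and the lowest value is the Pparg region at -1.09.

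Levels near the gene starts spanned a wide range. The gene-end region of Cebpd was the most open of the 10 genes at 94.1 ± 2.12 CPM in controls and lay at percentile 99.5 of all regions. The Cebpa start followed at percentile 98.7, then Klf15, Lpl, Cebpb and Zfp423. The regions nearest the starts of Pparg, Plin1 and Adipoq and the end of Fabp4 lay far lower, at 0.608 to 4.49 CPM in single libraries. Every window has the same length, and levels were ordered across genes without adjustment for base composition. With both genotypes pooled, the libraries of Klf15 overlapped those of Lpl, those of Lpl overlapped Cebpb, and those of Pparg overlapped Plin1. Within groups, Klf15 lay above Lpl without overlap in controls only, and Lpl above Cebpb without overlap in Notch2_cKO only. Pparg and Plin1 overlapped in Notch2_cKO but not in controls, and Pparg was the higher of the pair in each library. The other neighbours in the order did not overlap. Lpl was the only one of these 10 regions that passed the test between genotypes.

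**Figure D2:**
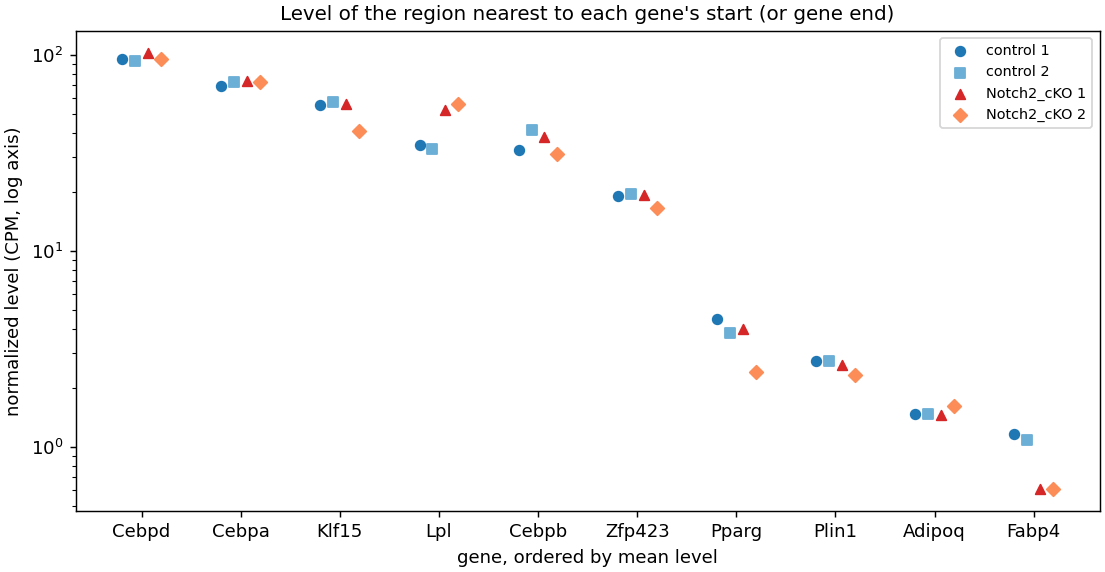
Normalized level (CPM, log axis) of the region nearest to each gene's start, or to a gene end where the strand was not given, in each library. Each point is 1 library and genes are ordered by mean level. Both Notch2_cKO points lie above both controls at Lpl and below them at Fabp4.

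Zfp423 encodes a zinc finger protein that commits precursor cells to the fat lineage and supports Pparg expression. It had the most regions of the 10 genes, 32, with 26 inside the gene, and 7 of them were higher in Notch2_cKO and 0 lower. At its start (chromosome 8, 87958751 to 87959300) the levels were 19.1 and 19.4 CPM in controls and 19.3 and 16.5 CPM in Notch2_cKO. The groups overlapped there, and the log2 difference of -0.09 (SE 0.13) did not pass (edgeR, adjusted p = 0.668). All 7 changed regions lay inside the gene, 84.0 to 221.5 kb from the first start in the direction of transcription. This start is the first with sequence at hand, and the annotated gene reaches further upstream. The region 97 bp from that gene end had 9.70 and 12.2 CPM in controls and 12.8 and 10.5 CPM in Notch2_cKO (log2 0.10), and did not pass.

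The largest change was 168.3 kb into the gene (87791001 to 87791600). There the control libraries had 10 and 9 counts and the Notch2_cKO libraries 106 and 45, or 0.434 and 0.361 CPM against 3.47 and 3.47 CPM. The region was close to shut in both controls and moderately open in both Notch2_cKO libraries, with no overlap. Its log2 difference was 3.11 (SE 0.30, edgeR adjusted p = 5.16e-07). Another region, at 214.8 kb, was also near shut in controls, with 11 and 10 counts in controls and 53 and 25 in Notch2_cKO, or 0.463 and 0.411 CPM against 1.76 and 1.91 CPM. Its log2 difference was 2.04 (SE 0.34, edgeR adjusted p = 0.000176).

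The other 5 started from a higher level and rose less. The region at 84.0 kb went from 1.08 and 0.965 CPM to 2.89 and 1.93 CPM (log2 1.31), and the one at 221.5 kb from 1.73 and 2.78 CPM to 5.41 and 3.94 CPM (log2 1.09). At 147.6 kb the levels were 1.77 and 2.35 CPM in controls and 4.15 and 3.55 CPM in Notch2_cKO (log2 0.92). In each of these the groups were separate, though at 84.0 and 221.5 kb the Notch2_cKO libraries lay further apart than the controls. At 221.5 kb the controls lay nearly as far from each other as from the nearer Notch2_cKO library. The last 2 formed a cluster at 122.5 and 125.5 kb with log2 differences of 0.84 and 0.51. Between them, at 124.0 kb, stood a stronger region of 15.0 and 12.8 CPM in controls and 17.8 and 15.4 CPM in Notch2_cKO, whose log2 difference of 0.27 did not pass (edgeR adjusted p = 0.189). The other 25 of the 32 regions did not pass. In 18 of the 32 both Notch2_cKO libraries lay above both controls, and in 2 they lay below, where all regions had 30.4% above and 29.5% below. Summed over all 32 regions the level was 154 and 163 CPM in controls and 190 and 167 CPM in Notch2_cKO.

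Without control 2, 6 of the 7 calls held, and the region at 168.3 kb had a log2 difference of 2.96. The call at 125.5 kb was lost without control 1 (log2 0.47) and without control 2 (0.52). Without control 1 the calls at 147.6 kb (0.73) and 122.5 kb (0.70) were lost as well, and without Notch2_cKO 1 those at 147.6 kb (0.78) and 84.0 kb (0.85). In the 40 regions flanking the Zfp423 regions, 20 on each side, 7 were higher, 4 were lower and the median log2 difference was 0.29, beside 0.26 for the Zfp423 regions themselves.

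**Figure D3:**
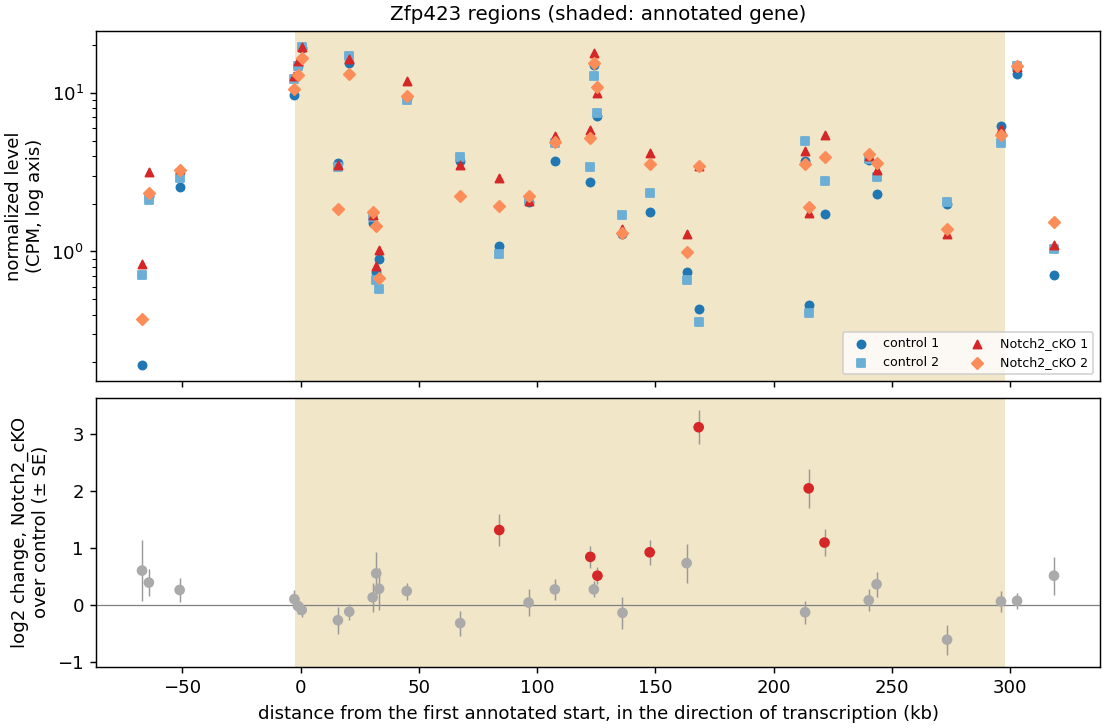
The 32 Zfp423 regions by distance from the first start with sequence at hand (kb, x axis, direction of transcription to the right, gene shaded). The annotated gene reaches upstream of that start. The upper panel gives the level in each library (CPM, log axis) and the lower panel the log2 difference with its SE, red where the region passed the test. The regions nearest the first start lie beside 0, at 0.5 and -1.1 kb, and the 7 red regions lie between 84.0 and 221.5 kb.

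Lpl encodes lipoprotein lipase, the enzyme that frees fatty acids from circulating triglycerides for uptake. Of its 14 regions, 4 were higher in Notch2_cKO and 0 lower. The strongest lay at the gene end with the lower coordinate (chromosome 8, 68880251 to 68880850, 5 bp from the gene). It held 842 and 867 counts in controls and 1567 and 666 in Notch2_cKO, which after scaling for depth was 34.7 and 32.9 CPM against 52.3 and 56.1 CPM. The groups were far apart compared with the spread inside them, 33.8 ± 1.32 against 54.2 ± 2.71 CPM (SD, n = 2 each). The log2 difference was 0.68 (SE 0.10, edgeR adjusted p = 5.9e-05). It was smaller under other scalings, 0.55 with TMM, 0.55 with DESeq2 and 0.47 with median centring, and passed in each. This region lay at percentile 95.8 of level among all regions, so the change was one of an already open gene end.

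The other 3 called Lpl regions were weaker ones outside the gene. The region 1818 bp past the opposite gene end (68908551 to 68909100) had 3.43 and 3.52 CPM in controls and 5.79 and 6.95 CPM in Notch2_cKO (a log2 difference of 0.85 with SE 0.19, and an edgeR adjusted p of 0.00223). The region 14255 bp before the gene had 13 and 21 counts in controls and 53 and 21 in Notch2_cKO, or 0.550 and 0.859 CPM against 1.76 and 1.61 CPM (log2 1.26). The region 23155 bp before it had 1.37 and 0.768 CPM against 1.78 and 2.16 CPM (log2 0.85). There the controls lay further from each other than the higher control lay from the nearer Notch2_cKO library. The strong distal regions did not pass: the one 73.6 kb from the lower gene end had 27.8 and 29.7 CPM in controls and 35.9 and 33.9 CPM in Notch2_cKO (edgeR adjusted p = 0.0679), and the one at 49.9 kb had 24.1 and 22.3 CPM against 19.2 and 20.7 CPM. Over the 14 regions the summed level was 133 and 124 CPM in controls and 153 and 165 CPM in Notch2_cKO.

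The calls at the gene end and at 1818 bp held with each of the 4 libraries left out, and without control 2 their log2 differences were 0.65 and 0.86. The call at 14255 bp was lost without control 1 (log2 1.03) and without Notch2_cKO 1 (1.09). That at 23155 bp was lost without control 2 (0.49), without Notch2_cKO 1 (0.97) and without Notch2_cKO 2 (0.71). Macrophages and endothelial cells also express Lpl. The gene-end sum of blood endothelial markers was 40.8 and 42.5 CPM in Notch2_cKO and 32.9 and 30.8 CPM in controls, with 1 higher and 1 lower call among its 4 regions. Of all 60 regions of those markers 13 were called higher and 3 lower (12 and 1 without control 2). Lymphatic endothelial markers had 0 higher and 8 lower among 52 regions (1 and 7 without control 2), and leukocyte markers had 0 higher and 2 lower among 22 (0 and 3 without control 2). With all 4 libraries the shares higher and lower were 21.7% and 5% for blood endothelial markers. They were 0% and 15.4% for lymphatic endothelial and 0% and 9.09% for leukocyte markers, against 12.5% and 11.2% of all regions. With each library left out in turn, Reln held most of the lower lymphatic calls. Tek held more of the higher blood endothelial calls than any other marker. The part of these cell types in the Lpl result was not tested. In the 40 regions flanking the Lpl regions, 5 were higher, 7 were lower and the median log2 difference was 0.00, beside 0.25 for the Lpl regions.

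**Figure D4:**
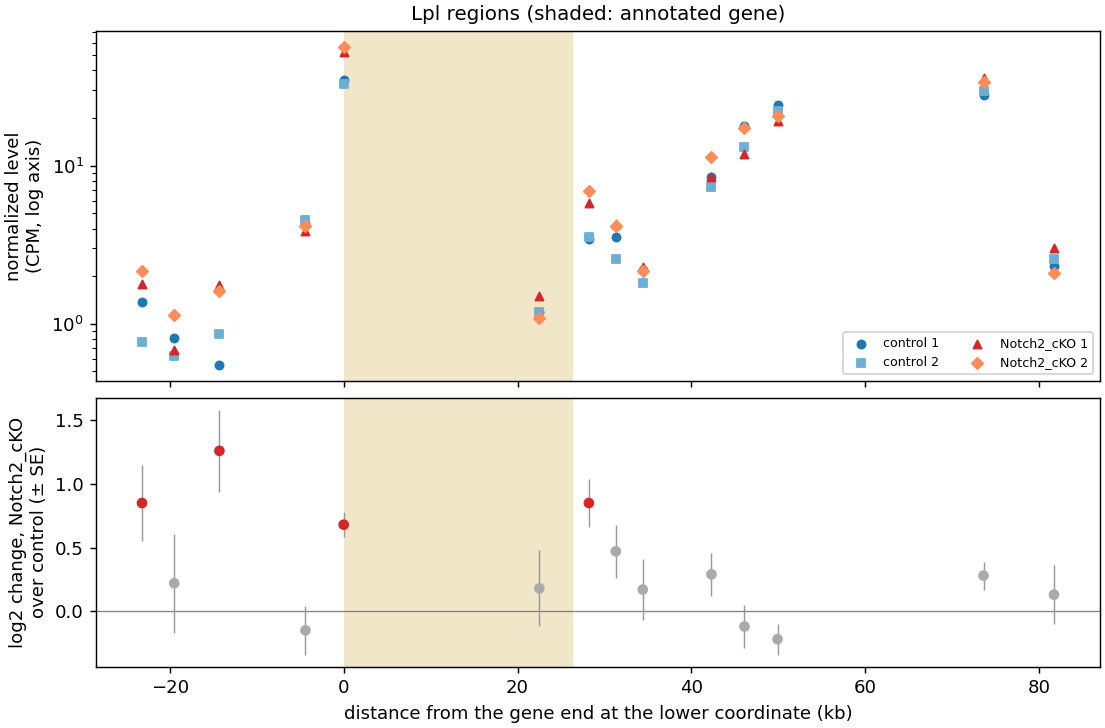
The 14 Lpl regions by distance from the gene end at the lower coordinate (kb, x axis, gene shaded), with the level in each library (CPM, log axis, upper panel) and the log2 difference with its SE (lower panel, red where the region passed the test). The tallest region, at the gene end, has the Notch2_cKO libraries at 52.3 and 56.1 CPM and the controls at 34.7 and 32.9 CPM.

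Pparg encodes PPARγ, the nuclear receptor that directs fat cell differentiation. Of its 13 regions, 0 were higher and 1 was lower in Notch2_cKO. The lower region lay 10929 bp upstream of the gene (chromosome 6, 115349601 to 115350200). It held 68 and 77 counts in controls and 50 and 13 in Notch2_cKO, or 2.97 and 3.08 CPM against 1.63 and 1.00 CPM. Both Notch2_cKO libraries lay well under both controls, 3.02 ± 0.0752 against 1.32 ± 0.444 CPM (SD, n = 2 each), with a log2 difference of -1.09 (SE 0.25, edgeR adjusted p = 0.00337). The call held with each library left out and was -1.04 without control 2, but it was lost with DESeq2.

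The first Pparg start (115360801 to 115361350) had 4.49 and 3.81 CPM in controls and 3.98 and 2.39 CPM in Notch2_cKO. The groups overlapped, and the log2 difference of -0.29 (SE 0.22) did not pass (edgeR adjusted p = 0.389). The region next to the third start (115420751 to 115421450), chosen for mention after its values were seen, had 5.39 and 5.49 CPM in controls and 5.05 and 4.87 CPM in Notch2_cKO (log2 -0.13). The adipocyte form of PPARγ is known to start from a promoter inside the gene. The most open Pparg region (115462751 to 115463450) lay inside the gene, 102.0 kb from the first start, with 27.4 and 29.9 CPM in controls and 24.7 and 25.3 CPM in Notch2_cKO. The groups did not overlap, and the log2 difference of -0.20 (SE 0.12) did not pass (edgeR adjusted p = 0.237). In 7 of the 13 regions both Notch2_cKO libraries lay below both controls and in 1 they lay above, beside 29.5% and 30.4% of all regions. The median log2 difference was -0.28, beside 0.11 in the 40 flanking regions, of which 2 were higher and 2 lower. The sum over the 13 regions was 67.8 and 71.6 CPM in controls and 60.2 and 58.4 CPM in Notch2_cKO.

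Cebpa, Cebpb and Cebpd encode the C/EBP factors, which pair with each other on DNA. Their 33 regions held 2 higher and 3 lower calls, or 6.06% and 9.09%, against 12.5% and 11.2% of all regions. The Cebpa start (chromosome 7, 35118951 to 35119450), whose sequence is given above, had 69.5 and 72.2 CPM in controls and 73.7 and 72.7 CPM in Notch2_cKO. The levels were almost equal, the log2 difference of 0.05 (SE 0.09) did not pass (edgeR adjusted p = 0.747), and its sign flipped under TMM scaling, median centring and DESeq2. The same held for Cebpd (chromosome 16, 15887001 to 15887550, 36 bp from the gene), with 95.6 and 92.6 CPM in controls and 102 and 95.2 CPM in Notch2_cKO. There the groups overlapped, and the log2 difference of 0.07 (SE 0.08, edgeR adjusted p = 0.59) took the other sign under the same 3 scalings. The Cebpb start (chromosome 2, 167688751 to 167689300) had 32.6 and 41.3 CPM in controls and 37.9 and 31.0 CPM in Notch2_cKO. Both groups spread widely and overlapped, and the log2 difference was -0.09 (SE 0.13, edgeR adjusted p = 0.663), with the opposite sign without control 2 (0.07).

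The C/EBP calls were all distal, and higher and lower ones stood beside each other. Near Cebpb, a region 23218 bp past the gene (167713351 to 167714050) had 23.9 and 26.0 CPM in controls and 16.5 and 17.9 CPM in Notch2_cKO. It was lower in both Notch2_cKO libraries, with a log2 difference of -0.54 (SE 0.13, edgeR adjusted p = 0.00348). A weaker region 84618 bp past the gene (167774701 to 167775250) moved the other way, from 2.76 and 2.77 CPM to 5.50 and 4.55 CPM. Its log2 difference was 0.89 (SE 0.20, edgeR adjusted p = 0.00234). The region 63668 bp past the gene was also lower, with 16.2 and 16.6 CPM in controls and 12.1 and 11.1 CPM in Notch2_cKO (log2 -0.48). The most open region assigned to Cebpb, 87218 bp away (167777301 to 167778000), had 55.4 and 58.7 CPM in controls and 55.0 and 46.9 CPM in Notch2_cKO and did not pass (log2 -0.16, edgeR adjusted p = 0.289), although it was called lower under TMM scaling (-0.32), median centring (-0.40) and without Notch2_cKO 1 (-0.28). The higher call held with each library left out. Both lower calls were lost without control 2 (log2 -0.50 and -0.49), and the one at 63668 bp also without control 1 (-0.52).

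At Cebpa, the region 19822 bp past the gene (35141401 to 35142100) was strongly open, with 54.2 and 50.7 CPM in controls and 40.0 and 44.5 CPM in Notch2_cKO. It was lower by a log2 difference of -0.32 (SE 0.10, edgeR adjusted p = 0.0253). A weaker region 24522 bp past the gene (35146151 to 35146700) was higher, with 2.5 and 2.3 CPM in controls and 3.96 and 3.24 CPM in Notch2_cKO (a log2 difference of 0.63 with SE 0.21, and an edgeR adjusted p of 0.0385). Neither call was firm. The lower one was lost without control 1 (log2 -0.28), control 2 (-0.38) or Notch2_cKO 1 (-0.22), and the higher one without the same libraries in turn (0.69, 0.54 and 0.45). Summed over regions, the 3 genes showed levels of similar size in both groups: 158 and 156 CPM in controls against 150 and 156 CPM for Cebpa, 256 and 273 against 260 and 228 CPM for Cebpb, and 97.7 and 94.8 against 105 and 97.9 CPM for Cebpd.

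Klf15 encodes a Krüppel-like factor that acts with the C/EBP factors on adipocyte and metabolic genes. Its start (chromosome 6, 90462251 to 90462750) had 55.3 and 57.1 CPM in controls and 56.2 and 40.9 CPM in Notch2_cKO. Notch2_cKO 2, the shallowest library, stood apart from the other 3, and the log2 difference of -0.19 (SE 0.12) did not pass (edgeR adjusted p = 0.256). A stronger region 1.1 kb into the gene (90463451 to 90463950) had 61.2 and 60.4 CPM in controls and 54.5 and 53.0 CPM in Notch2_cKO. Its groups did not overlap, and its log2 difference of -0.18 (SE 0.09) did not pass either (edgeR adjusted p = 0.176), although both regions were called lower after median centring (-0.43 each), this one under TMM scaling (-0.35) and the start without Notch2_cKO 1 (-0.46). The only call among the 9 regions lay 397 bp past the gene (90492001 to 90492450), with 2.85 and 4.00 CPM in controls and 5.98 and 4.48 CPM in Notch2_cKO. It was higher by a log2 difference of 0.65 (SE 0.21, edgeR adjusted p = 0.0286). Without control 2 it was 0.91 and held, and the call was lost without control 1 (0.42) and without Notch2_cKO 1 (0.39).

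Fabp4, Plin1 and Adipoq, the fatty acid binding, lipid droplet and adipokine genes, had few regions, 7 in all. Fabp4 encodes the fatty acid binding protein of adipocytes, also made by macrophages and capillary endothelium. It had 1 region, 34 bp from a gene end (chromosome 3, 10208501 to 10208900), with 28 and 26 counts in controls and 18 and 8 in Notch2_cKO. These were 1.16 and 1.08 CPM against 0.608 and 0.608 CPM, at percentile 7.31 of level. The groups did not overlap, and the log2 difference of -0.87 (SE 0.35) did not pass (edgeR adjusted p = 0.0813). The smallest count, 8, came from the shallowest library.

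Plin1 encodes perilipin, the coat protein of the lipid droplet. None of its 4 regions passed. At the start, whose sequence is given above, the levels were 2.73 and 2.75 CPM in controls and 2.60 and 2.32 CPM in Notch2_cKO (chromosome 7, 79732601 to 79733150), and the log2 difference was -0.13 with an adjusted p of 0.718 (edgeR, SE 0.22). The most open region, inside the gene near its far end (79721251 to 79721950), had 16.6 and 16.2 CPM in controls and 17.3 and 14.0 CPM in Notch2_cKO. There the controls lay between the Notch2_cKO libraries (log2 -0.05, SE 0.14, edgeR adjusted p = 0.857). The log2 differences of the 4 regions ran from -0.13 to -0.01.

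Adipoq encodes adiponectin, a hormone made by mature adipocytes. No region covered its promoter, and its 2 regions had mean levels of 1.37 and 1.50 CPM, beside a median of 3.43 CPM over all regions. The one inside the gene (chromosome 16, 23151301 to 23151850) had 1.46 and 1.46 CPM in controls and 1.45 and 1.62 CPM in Notch2_cKO, levels that overlapped (log2 0.05, SE 0.27, edgeR adjusted p = 0.916), with a negative sign after median centring. The other, 30132 bp past the gene (23187851 to 23188350), held 40 and 44 counts in controls and 30 and 13 in Notch2_cKO, or 1.71 and 1.79 CPM against 0.991 and 1.00 CPM. It was called lower, narrowly (log2 -0.81, SE 0.28, edgeR adjusted p = 0.0449). The call was lost with any of the 4 libraries left out, at log2 differences from -0.85 to -0.72, and was -0.72 without control 2.

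**Figure D5:**
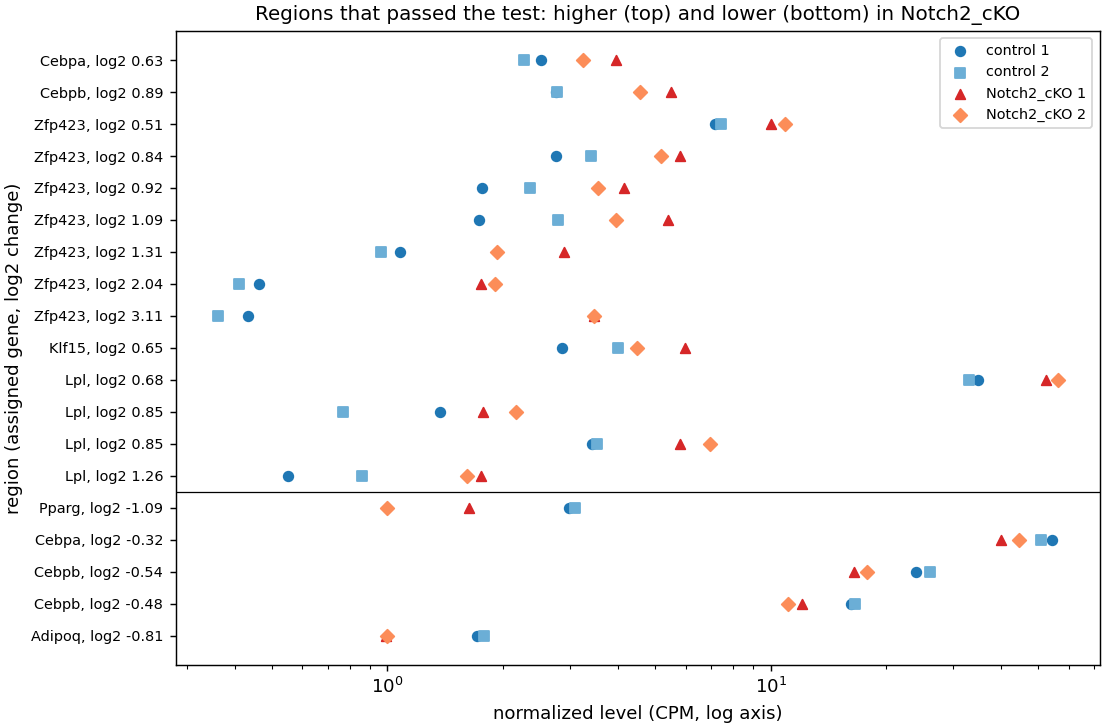
Normalized level (CPM, log axis) in each library for the 19 regions that passed the test, with the assigned gene and log2 difference on the y axis. The 14 higher regions stand above the line and the 5 lower regions below it. All higher regions but 1 lie at or under 7.41 CPM in both controls, and the exception is the Lpl gene end at 34.7 and 32.9 CPM.

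Around the 10 genes, other genes of the pathway were counted in the same fit, from lists that were drawn up with earlier results of these data known. Of 18 other adipogenic transcription regulators 17 had regions, and of their 208 regions 32 were higher (15.4%) and 27 lower (13%) in Notch2_cKO, with a median log2 difference of 0.11. Over all regions the shares were 12.5% and 11.2%. Without control 2 the list had 16 higher (7.69%) and 11 lower (5.29%), against 8.12% and 7.47% of all regions, and both shares were then under those of all regions. A region in Stat5b, a signal transducer of growth hormone and prolactin, went from 0.651 and 0.200 CPM to 4.19 and 2.63 CPM (a log2 difference of 3.09 with SE 0.36, and an edgeR adjusted p of 5.26e-06). A region near Prdm16, a brown fat determinant, went from 1.28 and 0.916 CPM to 4.65 and 3.94 CPM (log2 2.00). In the other direction, a region in Ppargc1a, a coactivator of PPARγ and of mitochondrial genes, went from 3.08 and 3.41 CPM to 0.654 and 0.618 CPM (a log2 difference of -2.33 with SE 0.28, and an edgeR adjusted p of 5.86e-06). A region in Rxra, the partner of PPARγ on DNA, went from 19.6 and 20.7 CPM to 10.4 and 9.50 CPM (log2 -1.01). Ebf1, an early B cell factor that also promotes adipogenesis, had 9 higher and 1 lower among 38 regions, but 2 and 0 without control 2, 5 and 1 without control 1, and 5 and 0 without Notch2_cKO 1. The 4 single regions held without control 2, at log2 differences of 2.42, 1.75, -2.20 and -1. The list had 24 higher and 18 lower without control 1, and 24 and 33 after median centring.

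Of 186 regions of 15 inhibitors of adipogenesis, 24 were higher (12.9%) and 33 lower (17.7%), against 12.5% and 11.2% of all regions. Runx2, the master regulator of bone formation, had 9 higher and 2 lower among 31 regions, but 4 and 0 without control 2, 5 and 1 without control 1 or without Notch2_cKO 1, and 9 and 0 without Notch2_cKO 2. Its leading region went from 0.309 and 0.557 CPM in controls to 5.36 and 5.10 CPM in Notch2_cKO (a log2 difference of 3.57 with SE 0.28, and an edgeR adjusted p of 6.76e-08). Dlk1, the preadipocyte factor shed from precursor cells, had 6 lower and 0 higher among 12 regions, but 2 lower without control 2 and 3 without control 1. Hes1, a Notch target, had 7 lower and 3 higher among 21 (7 and 1 without either control), and its leading lower region went from 18.8 and 19.7 CPM to 6.49 and 6.05 CPM (log2 -1.61). Gata3 had calls in both directions, with leading log2 differences of 1.76 and -1.88. Without control 2 the named regions of Runx2 (4.05), Hes1 (-1.59) and Gata3 (1.55 and -2.08) held. The list then had 14 higher (7.53%) and 20 lower (10.8%), against 8.12% and 7.47% of all regions, and 17 and 20 without control 1.

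Of 136 regions of 25 other lipid storage and handling genes, 19 were higher (14.0%) and 13 lower (9.56%). This compares with 12.5% and 11.2% of all regions, and the shares of all regions without control 2 were those given above. Cd36, a fatty acid transporter, had 6 lower and 0 higher among its 12 regions (6 lower without control 2, 2 without Notch2_cKO 1 and 9 without Notch2_cKO 2), and the leading one went from 10.4 and 9.66 CPM to 5.11 and 5.44 CPM (log2 -0.94). A region near Vldlr, a receptor for triglyceride-rich lipoproteins, was also lower, with 9.55 and 9.23 CPM in controls and 3.08 and 3.95 CPM in Notch2_cKO (log2 -1.47). Bscl2 encodes seipin, which shapes lipid droplets, and a region in it was higher, with 4.30 and 4.69 CPM against 10.3 and 10.2 CPM (log2 1.19). A region near Gpam, an early enzyme of triglyceride synthesis, was higher as well (log2 0.94). Plin2, the droplet coat protein found in most cell types, had 3 higher and 1 lower among 8 regions, but 0 and 1 without control 2, 1 and 0 without control 1, 3 and 0 without Notch2_cKO 1 and 2 and 1 without Notch2_cKO 2. Without control 2 the named regions of Cd36 (-1), Vldlr (-1.5), Bscl2 (1.24) and Gpam (0.76) held. The list then had 10 higher (7.35%) and 9 lower (6.62%), and the same counts without control 1, 14 and 6 without Notch2_cKO 1, and 14 and 16 after median centring.

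Of 53 regions of 11 adipokine and brown adipocyte genes, 4 were higher (7.55%) and 7 lower (13.2%). Over all regions 12.5% were higher and 11.2% lower, and the shares without control 2 were again those given above. A region inside Ppara, the fatty acid oxidation receptor, was lower (log2 -1.79), and so was one 770 bp from Retn, the resistin gene, with 9.77 and 7.73 CPM in controls and 4.14 and 5.12 CPM in Notch2_cKO (log2 -0.95). Regions of Lep (leptin, log2 1.18) and Nampt (log2 0.69) were higher. Both of these calls were lost without control 1 (log2 0.96 and 0.57) and with DESeq2 (1.23 and 0.72), and that of Nampt also without Notch2_cKO 1 (0.51). Without control 2 they held (1.54 and 0.81), as did Ppara (-1.58) and Retn (-1.12). With DESeq2 the list had 0 higher and 4 lower regions, against 6.7% and 4.97% of all regions. It had 2 higher (3.77%) and 6 lower (11.3%) without control 2, 1 and 4 without control 1, and 2 and 7 without Notch2_cKO 1.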

How the data were processed

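The 4 ATAC-seq libraries, 2 per group, were each a pool of 6 mice per the labels, so p-values measure the spread between pools. Per the submitters' processing notes, reads were handled with Bowtie2 (2.4.5), Trim Galore (0.6.7), cutadapt, deepTools, Picard (2.27.5) and SAMtools (1.14), on build mm10, and the labels name csaw. Not given in the sources used here are the peak caller, the filter on windows and whether reads were shifted. The authors deposited whole-number counts, 1 column per library, for 678058 overlapping 300-bp windows. The labels call these counts loess normalized, but their totals were up to 2.45 times apart, so they were treated as counts and the depth was adjusted here.

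Merging windows at most 100 bp apart gave 110121 regions with a median width of 600 bp, and 95460 of them had a gene among 21900 protein-coding RefSeq genes. The window with the highest summed count stood for a region. After loess offsets in the manner of csaw, edgeR's quasi-likelihood test was fitted on genotype, with Benjamini-Hochberg adjustment over all regions and a threshold of 0.05. The SE is the log2 change divided by the square root of the F statistic. Software was R 4.3.3 with edgeR 4.0.16, limma 3.58.1 and DESeq2 1.42.0, and Python 3.11.15. The fit was tested on counts simulated with the same dispersion for every region. It recovered 20.9% of 67 regions changed 1.5-fold, 67.2% of 67 changed 2-fold and 87.9% of 66 changed 4-fold. In the data 26114 of 110121 regions were called, and the adjustment is stricter when fewer regions change. These rates are therefore not those of the fit on the data. A region that did not pass can still have changed.

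Named were, for each of the 10 genes, the region nearest a start or gene end, the one of highest level and the called one of smallest p in each direction, and for each other list up to 2 called regions per direction. Remaining called regions of the 10 genes are given as well. The members and lists were chosen with earlier results of these data known. Replicates differed by more than counting noise (chi-square per region 1.97 for controls and 2.79 for Notch2_cKO), so each counted as 1 library. Alternatives were other scalings, tests, filters, merging gaps, gene distances and thresholds, a replicate block, and fits without each library in turn, in which the spread of the group with 1 library comes from the other.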

Additional observations from a re-analysis of the deposited data

How the results depend on the processing

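The count of higher regions (14 of 108) became 8 with DESeq2 and stayed within 1.5 times under the other planned settings that keep all libraries. The count of lower regions (5) became 9 with median centring, 2 with DESeq2 and 3 with the replicate block. It was 2 at an adjusted p under 0.01, and 0 of 65 members when genes were taken within 10 kb only. Over all regions, 6.7% were higher and 4.97% lower with DESeq2, and 10.9% and 16% with median centring. The replicate block gave 11.1% and 9.78%. At an adjusted p under 0.01, 8529 of all 110121 regions were higher and 7032 lower. With 1 library left out, 8 to 15 regions were higher and 1 to 8 lower. No called region changed direction. The calls of 6 regions held in each of the 10 refits on the same regions: 3 in Zfp423 (log2 3.11, 2.04 and 1.09), 2 at Lpl (0.68 and 0.85) and 1 near Cebpb (0.89).

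Over the 22 named regions and all settings, 255 values kept their direction and their side of the threshold, 29 lost the call, 8 gained one and 13 changed sign, all 13 at regions that did not pass. The Cebpa start was -0.16 with TMM, -0.25 with median centring and -0.16 with DESeq2, and Cebpd was -0.19, -0.27 and -0.19. The Adipoq region inside the gene was -0.02 with median centring. With 1 library left out, log2 differences ran from -0.26 to 0.07 at the Cebpb start and -0.46 to 0.02 at the Klf15 start. In the region nearest the first Zfp423 start they ran from -0.21 to 0.02. The range was -0.21 to 0.10 at the most open Plin1 region and -0.03 to 0.11 inside Adipoq. DESeq2 also lowered the list counts, for example to 16 higher and 11 lower for the other adipogenic regulators. It lowered the shares of all regions as well, to 6.7% higher and 4.97% lower.

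The replicate numbers of the labels share no stated litter or day, and same-numbered libraries deviated with a correlation of -0.18. The replicate block gave 13 higher and 3 lower regions, against 11.1% and 9.78% of all regions. The crossed pairing, chosen after seeing the data, gave 18 and 7, against 16.5% and 15.3%. The shallowest library (12342835 counts) limits faint regions such as those of Fabp4 and Adipoq, where it held 8 to 21 counts.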
